A study of Mus musculus with 384 samples.

Results

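The 9 homeobox transcription factor genes Vsx1, Otx2, Crx, Isl1, Lhx3, Lhx4, Meis1, Meis2 and Six3 were followed in single cells of the mouse retina. They were chosen by name, as 9 of the 32813 genes measured, and all 9 were in the deposited tables. The cells came from the dissociated retinas of Kcng4-cre;stop-YFP mice at postnatal day 17 and were sorted by flow cytometry into plates, with full-length cDNA made from each cell by Smart-seq2. The labels give the cross as Kcng4-cre with Thy1-stop-YFP Line#1, so that a yellow fluorescent protein reporter with Thy1 elements is switched on where Cre from the Kcng4 gene has acted. All cells shared this genotype and age, no control genotype is labelled, and strain, sex and the sorting gate are not given in the labels. The 4 retinas are named 1la, 1Ra, 2la and 2Ra, with 96 cells each; the number was read as the mouse, which makes 2 mice, and the meaning of la and Ra is not given.

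Of 383 cells with values, the 321 with at least 3000 genes at an expected count of 1 or more were used (70, 80, 88 and 83 cells from 1la, 1Ra, 2la and 2Ra). The 3 genes Sox6, Igfn1 and Ddit4l, which are not among the 9, sorted these cells into groups, each at 20 TPM or more (TPM is a transcript level scaled for gene length and for the cell's total). Igfn1 was taken in place of Vsx1, so that Vsx1 would not define its own group. Sox6 alone reached that level in 153 cells, Igfn1 alone in 58 and Ddit4l alone in 61, while 14 cells had more than 1 of these genes and 35 had none. Mouse 1 and mouse 2 gave 63 and 90 Sox6-only cells, 36 and 22 Igfn1-only cells, and 29 and 32 Ddit4l-only cells. Few cells lay near the threshold: Sox6 was between 10 and 20 TPM in 5 cells and between 20 and 50 TPM in 13, Igfn1 in 2 and 3, and Ddit4l in 3 and 3.

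The groups were alike in depth, with a median expected count per cell of 1067453 in Sox6-only, 1050269 in Igfn1-only and 1095419 in Ddit4l-only cells. Taken 1 at a time, each of 12 bipolar cell markers reached 1 TPM in most Sox6-only and in most Igfn1-only cells, and 10 did so in most Ddit4l-only cells, the exceptions being Scgn and Pcp2. The retinas differed in depth (median 759554 counts per cell in 1Ra, 1052926 to 1258579 in the others) and in the share of mitochondrial counts (2.06% in 1la and 2.14% in 2la, 4.26% in 1Ra and 4.88% in 2Ra). Rod transcripts were present in many cells. The summed level of 9 rod markers was 1000 TPM or more in 28.8% of Sox6-only, 29.3% of Igfn1-only and 21.3% of Ddit4l-only cells, which are called rod-rich here, and its median in Igfn1-only cells ran from 140 TPM in 2la to 2892 TPM in 2Ra. Some markers of other cell types also reached 1 TPM in most cells of a group. These were Pax6 (1 of 8 amacrine markers), Calb1 and Tpm3 (2 of 5 horizontal cell markers), Gm4792 (1 of 6 rod bipolar markers) and Pde6h (1 of 7 cone markers) in all 3 groups, Nnat (1 of 6 OFF bipolar markers) in Sox6-only and Ddit4l-only cells, and Thy1 (1 of 9 ganglion cell markers) in Sox6-only cells. Of 8 Müller glia markers, Slc1a3 did so in all 3 groups, Glul in Sox6-only and Igfn1-only cells and Clu in Sox6-only and Ddit4l-only cells. The median summed levels in Sox6-only, Igfn1-only and Ddit4l-only cells were 128, 123 and 118 TPM for the horizontal list, 327, 224 and 209 TPM for the Müller list, 987, 1324 and 105 TPM for the rod bipolar list, 2.47, 29.7 and 10.2 TPM for the cone list, 31.3, 2.38 and 86.2 TPM for the OFF list, 11.4, 7.38 and 13.9 TPM for the amacrine list and 3.73, 0.515 and 0.77 TPM for the ganglion list. No marker of microglia, endothelium or astrocytes reached 1 TPM in most cells of any group. The part of other cell types' RNA in the levels below was not tested.

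Homeobox factors bind DNA through a shared helical domain and set cell identity in combinations. In the retina, Otx2 and Crx act in photoreceptors and bipolar cells, the interneurons between photoreceptors and ganglion cells, and Isl1 acts in ON bipolar cells as well as in ganglion and cholinergic amacrine cells. Vsx1 is known from a subset of cone bipolar types, and the LIM-homeobox genes Lhx3 and Lhx4 and the TALE-class genes Meis1 and Meis2 each mark some retinal classes. Six3 acts early in eye formation and later in inner retinal neurons.

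The windows at the start sites of 4 genes are printed: Vsx1, Lhx4 and Meis2, which divide the groups, and Crx, which does not. Each holds 250 bases before and 50 after the start in RefSeq on GRCm38.p6, 5′ to 3′ on the gene's own strand, which is the minus strand for all 4. Vsx1 lies at chr2:150689088-150689387, Lhx4 at chr1:155741978-155742277, Meis2 at chr2:116064570-116064869 and Crx at chr7:15879906-15880205. Capitals mark matches, on either strand, to TAATTA (the core bound by many homeodomains, which reads the same on both strands), TAATCC (the core of Otx and Crx type proteins, which appears as GGATTA on the other strand) and TGACAG (the core of Meis type proteins).
Vsx1: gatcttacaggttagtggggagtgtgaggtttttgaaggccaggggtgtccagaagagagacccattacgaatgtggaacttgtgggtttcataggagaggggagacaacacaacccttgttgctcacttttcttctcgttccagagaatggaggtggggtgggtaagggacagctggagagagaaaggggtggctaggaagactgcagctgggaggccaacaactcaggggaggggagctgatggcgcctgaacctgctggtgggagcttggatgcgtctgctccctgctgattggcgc
Lhx4: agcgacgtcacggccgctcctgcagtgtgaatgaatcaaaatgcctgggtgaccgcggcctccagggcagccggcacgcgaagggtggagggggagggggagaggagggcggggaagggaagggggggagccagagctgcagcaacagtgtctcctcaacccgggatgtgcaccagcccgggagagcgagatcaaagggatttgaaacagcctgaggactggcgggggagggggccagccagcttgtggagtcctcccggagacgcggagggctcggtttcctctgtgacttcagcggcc
Meis2: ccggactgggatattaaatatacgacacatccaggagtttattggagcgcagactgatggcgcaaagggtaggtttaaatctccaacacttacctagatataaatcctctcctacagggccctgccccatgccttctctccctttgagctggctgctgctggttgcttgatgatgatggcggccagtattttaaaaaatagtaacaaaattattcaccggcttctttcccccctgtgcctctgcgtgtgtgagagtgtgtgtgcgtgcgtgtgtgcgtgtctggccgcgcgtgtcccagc
Crx: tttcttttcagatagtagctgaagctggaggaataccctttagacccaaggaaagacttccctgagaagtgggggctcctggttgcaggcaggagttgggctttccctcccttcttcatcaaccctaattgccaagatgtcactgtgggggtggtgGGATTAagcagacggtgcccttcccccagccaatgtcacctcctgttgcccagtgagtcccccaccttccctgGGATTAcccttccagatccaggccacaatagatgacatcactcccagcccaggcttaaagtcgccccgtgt

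The Crx window held 2 matches to TAATCC, 94 and 21 bases before the start. The Vsx1, Lhx4 and Meis2 windows held none of the 3 motifs, which says only that these letters are not in these windows. Over 13 windows of the 9 genes, TAATTA was in 2, TAATCC in 3 and TGACAG in 1. Among all 32851 windows of that length, TAATTA was in 5.29%, TAATCC in 7.06% and TGACAG in 19.2%. The other matches were in Otx2 (3 TAATTA and 1 TAATCC in 1 window, 1 TAATTA in another), Isl1 (1 TAATCC, 177 bases before the start) and Six3 (1 TGACAG, 139 bases before the start). Lhx3 and Meis1, which were found in few cells of any group, also had none. These matches are a description of letters, and no binding was measured. A link between the motifs and the division of the groups was not tested, and no result rests on these windows.

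Otx2, Crx and Isl1 were present in most cells of all 3 groups. Otx2, on chromosome 14 (48657677 to 48673819 in the GRCm38 annotation, minus strand), reached 20 TPM in 142 of 153 Sox6-only cells (92.8%), 55 of 58 Igfn1-only cells (94.8%) and 59 of 61 Ddit4l-only cells (96.7%). Its mean level was 599 ± 79.1 TPM (SD, n = 2 mice) in Sox6-only, 499 ± 67.8 in Igfn1-only and 644 ± 162 in Ddit4l-only cells. Mouse 1 and mouse 2 had 655 and 543 TPM in Sox6-only, 451 and 547 TPM in Igfn1-only and 758 and 530 TPM in Ddit4l-only cells, so the groups overlapped. An antisense gene, Otx2os1, which is not in the deposited tables, overlaps part of Otx2 (48668708 to 48673819). The library method does not keep the strand, so reads from the shared stretch cannot be told apart.

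Crx (chromosome 7, 15865947 to 15879968, minus strand) was at 20 TPM or more in 126 of 153 Sox6-only cells (82.4%), 53 of 58 Igfn1-only cells (91.4%) and 56 of 61 Ddit4l-only cells (91.8%). The means of mouse 1 and mouse 2 were 227 and 207 TPM in Sox6-only, 241 and 224 TPM in Igfn1-only and 336 and 284 TPM in Ddit4l-only cells. Both Ddit4l-only values lay above all others, while the Sox6-only and Igfn1-only values overlapped. Crx also moved with the rod transcripts. Its mean was higher in rod-rich cells than in the rest in 6 of 6 combinations of mouse and group, for example 313 against 190 TPM in mouse 1 and 312 against 167 TPM in mouse 2 among Sox6-only cells. Isl1 went the other way, with a lower mean in rod-rich cells in each of these combinations. Among Sox6-only cells it was 507 against 774 TPM in mouse 1 and 652 against 798 TPM in mouse 2. The share of all genes with so even a direction was not computed. The part of rod RNA in the Crx and Isl1 levels was not tested.

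Isl1 (chromosome 13, 116298281 to 116309689, minus strand), a LIM-homeobox gene of ON bipolar cells, was at 20 TPM or more in 139 of 153 Sox6-only cells (90.8%), 55 of 58 Igfn1-only cells (94.8%) and 57 of 61 Ddit4l-only cells (93.4%). Mouse 1 and mouse 2 had mean levels of 693 and 758 TPM in Sox6-only and 775 and 718 TPM in Ddit4l-only cells, against 369 and 566 TPM in Igfn1-only cells. Both Igfn1-only values were below all 4 others, and the difference did not pass the test given further on.

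Vsx1 divided the groups in the opposite way to Lhx4 and Meis2. Igfn1 stood in for Vsx1 in setting the groups and was the gene most like it over these cells (Pearson r = 0.898). The Vsx1 division was therefore largely given by that choice and is not an independent finding. Vsx1 (chromosome 2, 150680702 to 150689360, minus strand) was at 20 TPM or more in 52 of 58 Igfn1-only cells (89.7%, 95% Clopper-Pearson interval 78.8 to 96.1%, counting error only). It reached that level in 3 of 153 Sox6-only cells (1.96%, 0.406 to 5.62%) and 2 of 61 Ddit4l-only cells (3.28%, 0.400 to 11.4%). The mean over the Igfn1-only cells of 1la, 1Ra, 2la and 2Ra was 256, 338, 277 and 290 TPM. In Sox6-only cells the same retinas had 0.372, 0.128, 4.75 and 9.72 TPM, and in Ddit4l-only cells 0.0300, 0.0537, 9.93 and 4.27 TPM. Every Igfn1-only value was above every value of the other groups, and the low values were higher in mouse 2 than in mouse 1. The 3 Sox6-only and 2 Ddit4l-only cells with Vsx1 were all from mouse 2 and all had Lhx4 as well.

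Single Igfn1-only cells ranged from 0 to 973 TPM of Vsx1, with a median of 273 TPM. The 6 cells under 20 TPM were all from mouse 1, where the share was 83.3% against 100% in mouse 2. In mouse 1, Vsx1 averaged 145 TPM in the rod-rich Igfn1-only cells and 365 TPM in the rest, and in mouse 2 it averaged 295 and 277 TPM.

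**Figure D1:**
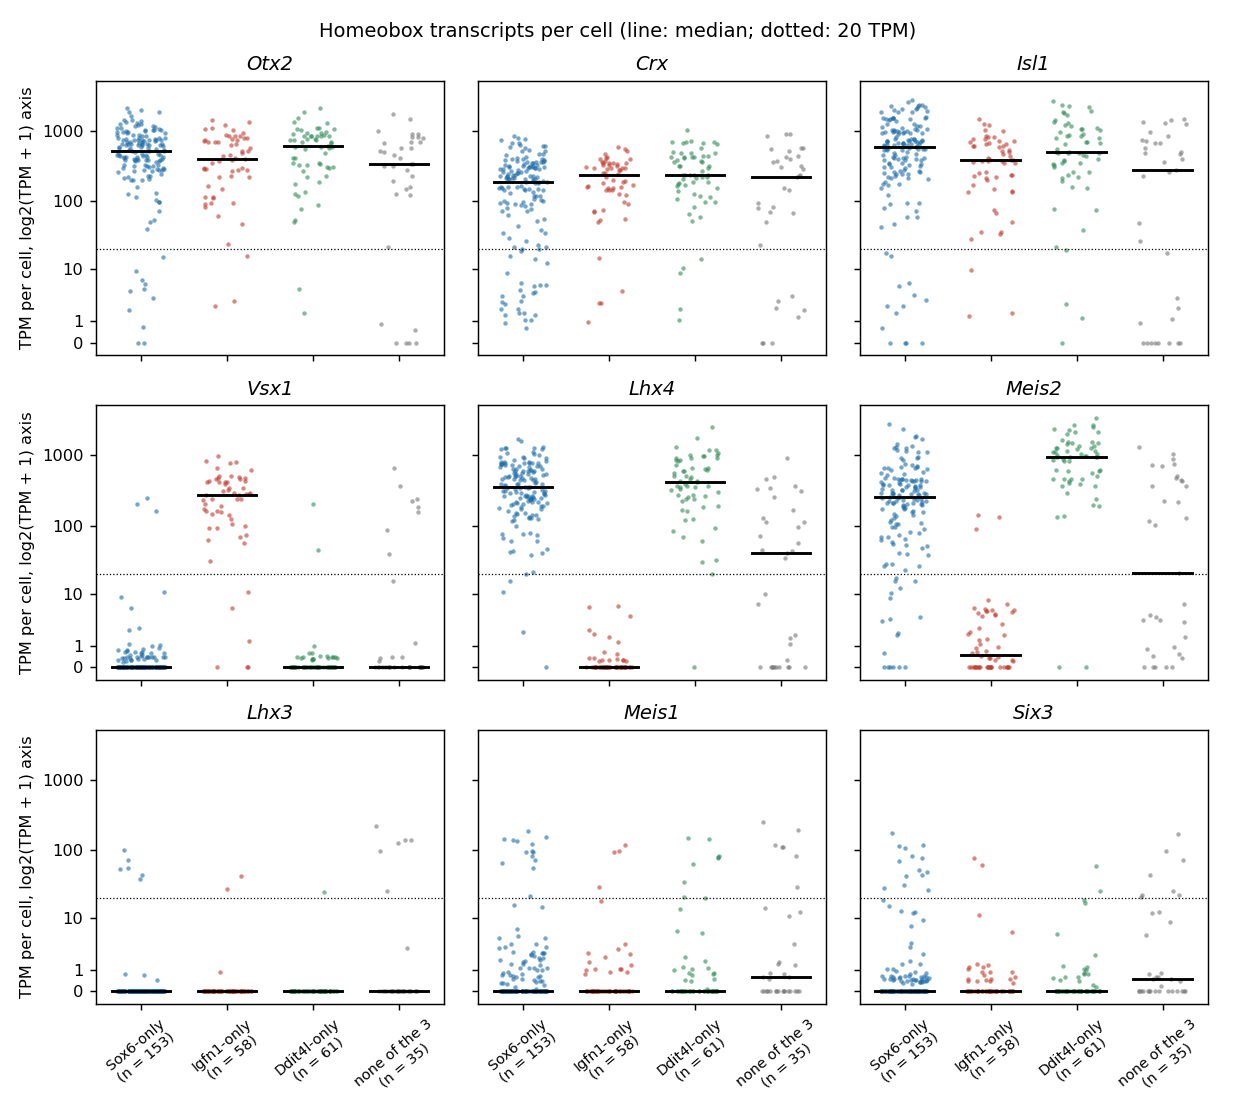
Each point is 1 cell, placed by the group it falls in (horizontal axis) and its TPM for the gene named over each panel (vertical axis, log2(TPM + 1) scale); lines are medians and the dotted line is 20 TPM. Vsx1 stands high in Igfn1-only cells (median 273 TPM) and at 0 in most others. Lhx4 and Meis2 are high in most Sox6-only and Ddit4l-only cells. In Igfn1-only cells Lhx4 is at 0 in most, and Meis2 is low (median 0.5 TPM). Otx2, Crx and Isl1 are high in most cells of the 3 groups.

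Lhx4 was at or near 0 in the Igfn1-only cells, the group in which Vsx1 was common. Lhx4 (chromosome 1, 155698031 to 155751684, minus strand), a LIM-homeobox gene, was at 20 TPM or more in 148 of 153 Sox6-only cells (96.7%, 92.5 to 98.9%) and 60 of 61 Ddit4l-only cells (98.4%). No Igfn1-only cell reached it: the count was 0 of 58 (95% Clopper-Pearson interval 0 to 6.16%; the limit by 3 cells of 58 is 5.17%), and the highest of these cells had 6.43 TPM. The means in 1la, 1Ra, 2la and 2Ra were 591, 537, 492 and 230 TPM in Sox6-only cells and 710, 397, 729 and 280 TPM in Ddit4l-only cells. In Igfn1-only cells they were 0.607, 0.0324, 1.33 and 0.182 TPM, so no retina overlapped. Of the 58 Igfn1-only cells, 40 were listed at 0 for Lhx4.

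Meis2 (chromosome 2, 115863064 to 116065839, minus strand), a TALE-class homeobox gene, followed Lhx4, but its retina means also differed between Sox6-only and Ddit4l-only cells. It was at 20 TPM or more in 135 of 153 Sox6-only cells (88.2%), 59 of 61 Ddit4l-only cells (96.7%) and 3 of 58 Igfn1-only cells (5.17%, 1.08 to 14.4%). In 1la, 1Ra, 2la and 2Ra the means were 491, 317, 423 and 313 TPM in Sox6-only, 1616, 1212, 825 and 754 TPM in Ddit4l-only and 10.6, 5.28, 3.10 and 14.9 TPM in Igfn1-only cells. The retina means of the 3 groups did not overlap, with Ddit4l-only cells highest and Igfn1-only cells lowest in every retina. Single cells did overlap, from 0 to 2800 TPM in Sox6-only and from 0 to 3411 TPM in Ddit4l-only cells. The spread between mice was widest in Ddit4l-only cells (1076 ± 389 TPM, SD, n = 2 mice) beside 389 ± 27.6 TPM in Sox6-only cells.

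The 3 Igfn1-only cells with Meis2 held 88.4 to 142 TPM, and all 3 were rod-rich and had Vsx1. With rod-rich cells left out, the share of Igfn1-only cells at 20 TPM of Meis2 was 0%. At the lower limit of 1 TPM it was 41.4%, and that of Lhx4 12.1%.

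**Figure D2:**
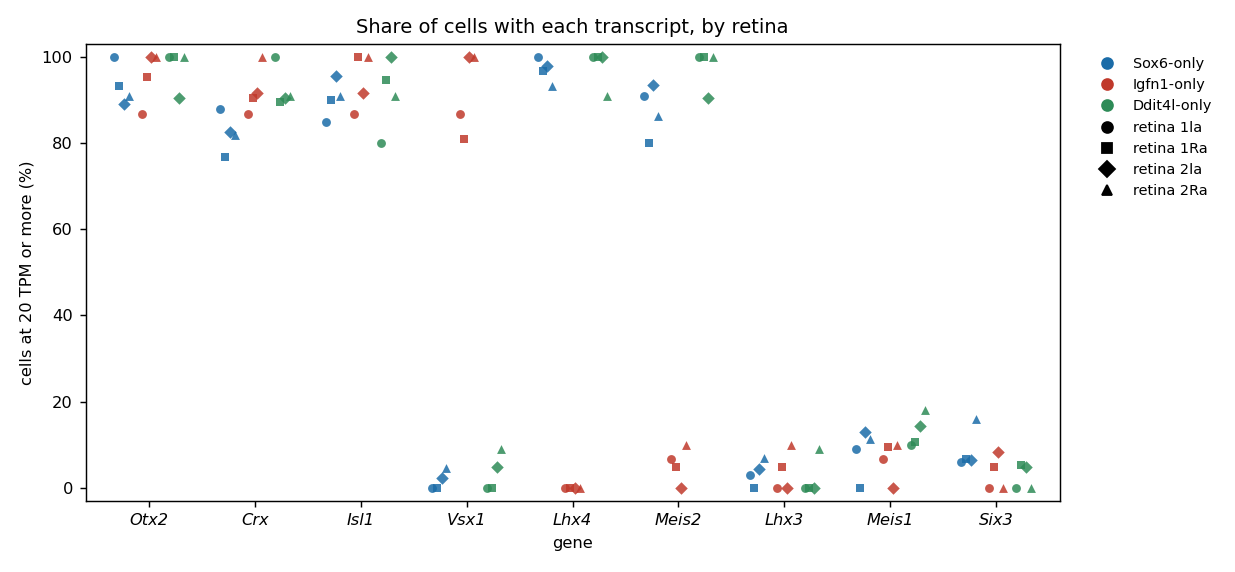
Points are the share of cells at 20 TPM or more (vertical axis, percent) in each of the 4 retinas (symbols) and 3 groups (colours) for each of the 9 genes (horizontal axis). Over all retinas Vsx1 stands at 89.7% in Igfn1-only cells against 1.96% and 3.28% elsewhere, and Lhx4 at 0% against 96.7% and 98.4%.

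Lhx3, Meis1 and Six3 were found in few cells of any group. Lhx3 (chromosome 2, 26200212 to 26208289, minus strand), the close relative of Lhx4, was at 20 TPM or more in 6 of 153 Sox6-only, 2 of 58 Igfn1-only and 1 of 61 Ddit4l-only cells. Its mean was 2.18 ± 1.82, 1.23 ± 0.0445 and 0.383 ± 0.542 TPM (SD, n = 2 mice) in that order. Meis1 (chromosome 11, 18879817 to 19018985, minus strand), the close relative of Meis2, was at 20 TPM or more in 14, 4 and 8 cells (9.15%, 6.90% and 13.1%), with means of 9.88 ± 4.04, 6.38 ± 1.01 and 11.4 ± 5.71 TPM. Six3 (chromosome 17, 85613608 to 85629302, plus strand) was at 20 TPM or more in 14, 2 and 2 cells, with means of 7.25 ± 1.76, 3.04 ± 0.788 and 2.22 ± 1.68 TPM. For none of these genes did the mean levels differ between groups beyond the test. Six3os1, which overlaps Six3 on the other strand, averaged 8.49, 7.03 and 0.640 TPM, and reads from the shared stretch cannot be told apart.

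The mean of Meis1 was higher in rod-rich cells than in the rest in 5 of 6 combinations of mouse and group, and lower in the Ddit4l-only cells of mouse 1 (4.6 against 7.89 TPM). Of the cells with Meis1 at 20 TPM or more, 11 of 14 Sox6-only, 3 of 4 Igfn1-only and 5 of 8 Ddit4l-only cells were rod-rich. Among the cells without Meis1, 33 of 139, 14 of 54 and 8 of 53 were rod-rich. With rod-rich cells left out, the share with Meis1 was 2.75% in Sox6-only, 2.44% in Igfn1-only and 6.25% in Ddit4l-only cells. The share of all genes that were higher in rod-rich cells in so many combinations was not computed. The part of rod RNA in these levels was not tested.

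The division by Vsx1, Lhx4 and Meis2 was also seen at equal depth. With every cell thinned to 200000 counts, 94.8% of Igfn1-only cells had at least 1 count of Vsx1, against 16.3% of Sox6-only and 11.5% of Ddit4l-only cells. Lhx4 had at least 1 count in 13.8% of Igfn1-only cells, against 99.3% of Sox6-only and 98.4% of Ddit4l-only cells. Meis2 had at least 1 count in 22.4% of Igfn1-only cells, against 93.5% and 96.7%. No cell was too shallow to be thinned.

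Expected counts were then summed per mouse and group, which gave 6 sums of 25560861 to 98254156 counts, and compared with the edgeR quasi-likelihood test with the mouse as a block. A gene was called where its Benjamini-Hochberg adjusted p over all 16706 genes tested was under 0.05 and its log2 fold change was at least 1 in size. All 9 genes passed the filter on low counts. With 2 mice the test called few genes of any kind, 6 between Igfn1-only and Sox6-only (0.0359% of genes tested), 7 between Igfn1-only and Ddit4l-only (0.0419%) and 1 between Ddit4l-only and Sox6-only (0.00599%). At an unadjusted p under 0.05 there were 1440, 2114 and 1315 genes. The 3 comparisons share groups and an estimate of the spread, and are not independent of each other. All cells of a group come from the same 2 animals. With the mouse as a block, a p-value rests in part on how far the differences between groups disagree between those 2. It also rests on an estimate of the spread that draws on all genes tested.

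Of the 9 homeobox genes, 1 was called between Igfn1-only and Sox6-only cells (Lhx4), 2 between Igfn1-only and Ddit4l-only cells (Lhx4 and Meis2), and 0 between Ddit4l-only and Sox6-only cells. By unadjusted p under 0.05 alone these counts were 4, 5 and 2, beside 1440, 2114 and 1315 of all 16706 genes tested. The median log2 fold change of the 9 genes was -0.52, -0.40 and 0.03 in the 3 comparisons, beside -0.06, 0.01 and -0.08 over all genes tested.

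Lhx4 was lower in Igfn1-only cells by 844-fold against Sox6-only cells. In CPM (counts scaled to the size of the summed library) mouse 1 and mouse 2 had 0.608 and 1.15 in Igfn1-only against 854 and 606 in Sox6-only cells, and the log2 fold change was -9.72 ± 0.48 (SE; edgeR adjusted p = 0.04135). Against Ddit4l-only cells, with 836 and 858 CPM, Lhx4 was lower by 977-fold (-9.93 ± 0.48, edgeR adjusted p = 0.04544). Over 15 alternatives the log2 fold change lay between -10.34 and -9.39 and between -10.43 and -9.78, and Lhx4 was called in 7 and 9 of them. Among those without a call, the adjusted p against Sox6-only cells was 0.1735 without 1la, 0.07194 without 1Ra, 0.06418 without 2la and 0.06955 without 2Ra, and against Ddit4l-only cells it was 0.1397 without 1la, 0.06392 without 1Ra and 0.06818 without 2Ra. Without rod-rich cells it was 0.1534 and 0.09573.

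Meis2 was lower in Igfn1-only than in Ddit4l-only cells by 120-fold, at 6.62 and 9.25 CPM against 1139 and 773 CPM (log2 fold change -6.91 ± 0.37, edgeR adjusted p = 0.04665). Meis2 was called in 8 of 15 alternatives, and the call was lost without 1Ra (adjusted p = 0.1901), 2la (0.1279) or 2Ra (0.102) and without rod-rich cells (0.05071). Against Sox6-only cells, at 322 and 317 CPM, Meis2 was 40.1-fold lower in the Igfn1-only cells and lower in both mice, and missed the threshold (-5.33 ± 0.34, edgeR adjusted p = 0.09261). Between Ddit4l-only and Sox6-only cells Meis2 was higher in Ddit4l-only cells of both mice, by 1.58 ± 0.29 on the log2 scale, and did not pass (edgeR adjusted p = 0.5065).

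Vsx1 was not called in spite of its size. Mouse 1 and mouse 2 had 723 and 721 CPM in Igfn1-only cells, 0.820 and 18.3 CPM in Sox6-only cells and 0.108 and 18.1 CPM in Ddit4l-only cells. The log2 fold change of Igfn1-only cells was 8.37 ± 2.06 against Sox6-only (edgeR adjusted p = 0.4358) and 8.74 ± 2.13 against Ddit4l-only cells (0.2699). In the low groups the mice differed by more than an order of magnitude, while their Igfn1-only sums were nearly equal.

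The other members showed no call. Isl1 was lower in Igfn1-only cells by 0.64 ± 0.23 and 0.67 ± 0.23 on the log2 scale (edgeR adjusted p = 0.5668 and 0.376). Crx was at -0.50 ± 0.15 in Igfn1-only against Ddit4l-only cells (edgeR adjusted p = 0.3172), and at 0.46 ± 0.15 in Ddit4l-only against Sox6-only cells (0.5999). Otx2 stayed between -0.35 and 0.04 in all 3 comparisons. Lhx3, Meis1 and Six3 had SEs of 0.87 to 2.05 on the log2 scale, so that sizeable differences in either direction could not be detected.

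**Figure D3:**
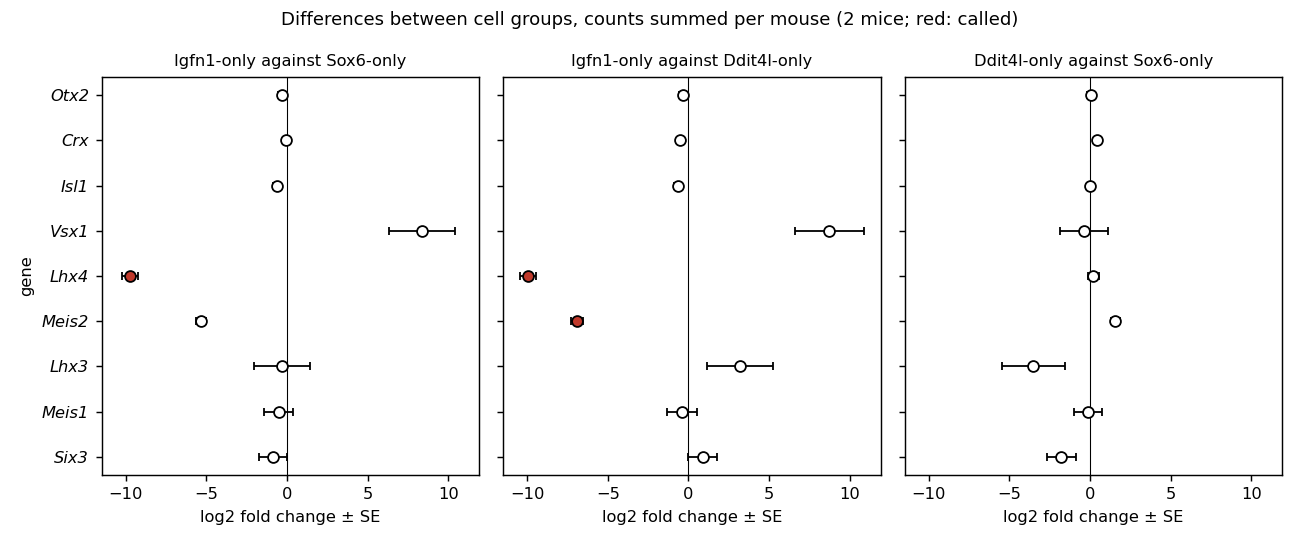
Points are log2 fold changes (horizontal axis) with SE bars for the 9 genes (vertical axis) in the 3 comparisons, from counts summed per mouse; red points were called. Lhx4 (-9.72 and -9.93) and Meis2 (-6.91) are called, Vsx1 (8.37 and 8.74) has wide bars and is not, and Otx2, Crx and Isl1 lie within 1 unit of 0.

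Summing per retina instead gives 4 sums a group, with the retina as block. Retinas of 1 mouse are not separate animals, so these p-values are too small. By that fit 104 of 16308 genes (0.638%), 252 (1.55%) and 51 (0.313%) were called in the 3 comparisons. Lhx4 then had adjusted p-values of 3.791e-04 and 1.016e-04, and Meis2 of 0.005229 and 0.001347. Vsx1 was called against Ddit4l-only cells (8.91 ± 1.63, edgeR adjusted p = 0.03631) and not against Sox6-only cells (8.42 ± 1.58, 0.06507).

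In single cells the 6 common genes of the 9 (all but Lhx3, Meis1 and Six3) mostly fell into a pair of combinations. Lhx4, Meis2, Isl1, Otx2 and Crx together, without Vsx1, were at 20 TPM or more in 94 of 153 Sox6-only cells (61.4%) and 48 of 61 Ddit4l-only cells (78.7%). Vsx1, Isl1, Otx2 and Crx together, without Lhx4 and Meis2, were found in 41 of 58 Igfn1-only cells (70.7%). The next most common set in Sox6-only cells was the first without Crx (17 cells), and in Igfn1-only cells the second without Vsx1 (5 cells). A cell had a median of 5, 4 and 5 of the 9 genes in Sox6-only, Igfn1-only and Ddit4l-only cells.

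Vsx1 and Lhx4 seldom met in a cell, and most cells with Vsx1 were in the Igfn1-only group, where no cell had Lhx4. Of the 272 cells in the 3 groups, 57 had Vsx1 and 208 had Lhx4 at 20 TPM or more, and 5 had both. Over all 321 kept cells, 68 had Vsx1 and 11 of these had Lhx4. None of the 52 Vsx1 cells of the Igfn1-only group had Lhx4, as no cell of that group did. Elsewhere Lhx4 was in 3 of 3 Vsx1 cells of the Sox6-only group and 2 of 2 of the Ddit4l-only group. It was in 3 of 8 Vsx1 cells with none of the 3 marker genes and 3 of 3 with more than 1. The low overlap thus restates the division between groups and does not show exclusion within a cell. Lhx4 and Meis2 met in 131 of 153 Sox6-only and 58 of 61 Ddit4l-only cells and in 0 of 58 Igfn1-only cells.

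**Figure D4:**
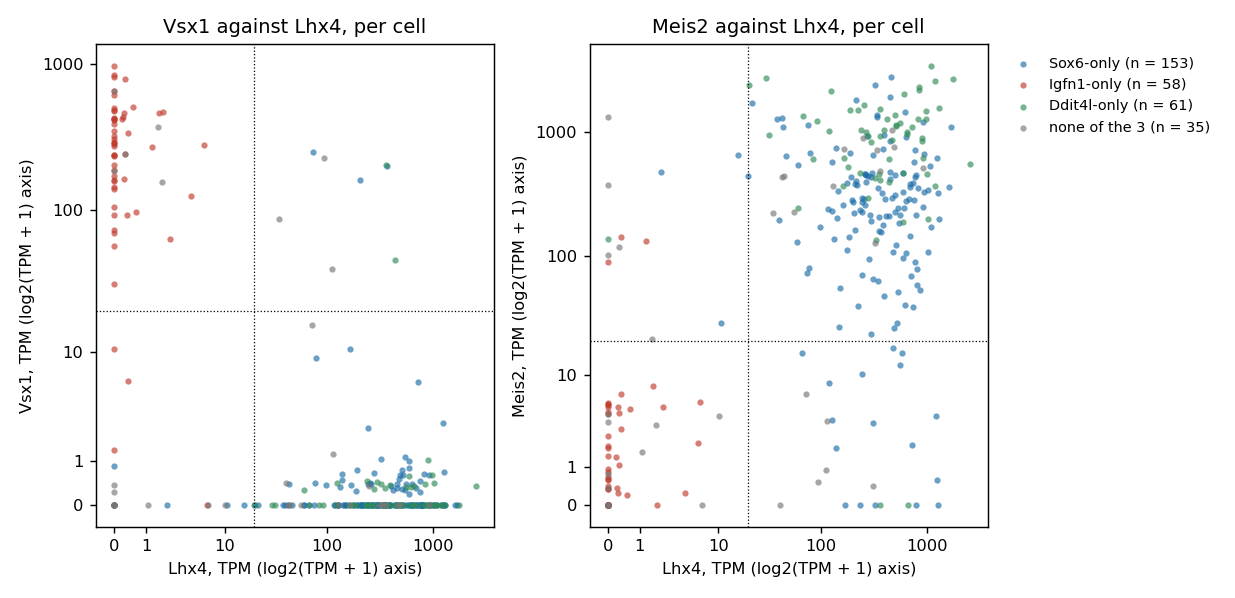
Each point is 1 cell, with the TPM of a pair of genes on the axes (both on a log2(TPM + 1) scale) and colours for the cell groups. Vsx1 and Lhx4 mostly lie along separate axes, with 5 of the 272 cells of the 3 groups at 20 TPM or more of both, while most cells with Lhx4 also had Meis2.

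The 35 cells with none of Sox6, Igfn1 and Ddit4l at 20 TPM carried a wider mix. The full set of Lhx4, Meis2, Isl1, Otx2 and Crx was present in 11 of them (31.4%). Isl1 was at 20 TPM or more in 22 (62.9%), a lower share than the 90.8 to 94.8% of the groups, and Lhx3 in 6 (17.1%), Meis1 in 7 (20%) and Six3 in 8 (22.9%). Vsx1 was in 8 of these cells (22.9%), 4 from each mouse. Of these 8, all had Otx2, 7 had Crx, 6 had Isl1 and 3 had Lhx4, while 4 had Lhx3 and 4 had Six3. Among the 52 Vsx1 cells of the Igfn1-only group, 2 had Lhx3 and 2 had Six3. Of the 6 cells with Lhx3, 4 had Vsx1, 4 had Six3, and 3 had Grik1 and 3 Tacr3, which encode a kainate receptor subunit and a neurokinin receptor known from OFF bipolar cells. All 6 had Trpm1 and 3 had Grm6, which encode a channel and a glutamate receptor known from ON bipolar cells. Of the 29 cells without Lhx3 at that level, 1 had Grik1, 4 Tacr3, 19 Trpm1 and 15 Grm6. The other OFF bipolar markers of the list were not counted in these cells. The 35 cells were few, 40% of them were rod-rich, and no test was made of them.

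The genes most like Vsx1 over the 272 cells, by Pearson r of log2(TPM + 1) among 3807 genes, were Igfn1 (r = 0.898), which set the group, Sec1 (0.869) and Cabp2 (0.783), a calcium-binding protein gene. Sec1 averaged 1.79, 415 and 2.26 TPM and Cabp2 6.70, 329 and 3.57 TPM over the Sox6-only, Igfn1-only and Ddit4l-only cells. Those most like Lhx4 were Kcnh6 (0.875), a potassium channel gene, Nfia (0.852), a transcription factor gene, and Cabp5 (0.844), a calcium-binding protein gene of bipolar cells. Nfia averaged 492, 5.49 and 640 TPM and Kcnh6 1828, 37.6 and 1570 TPM. The same 3 genes led for Meis2 (Nfia 0.742, Kcnh6 0.724, Cabp5 0.722). Vsx1 and Lhx4 had r = -0.812 over the 272 cells, and -0.0736, -0.166 and 0.0575 within the Sox6-only, Igfn1-only and Ddit4l-only cells. The cells share 4 retinas, 2 animals and the division into groups, and no p is given.

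Other genes of these pathways were taken from lists. None of the genes tested in 4 lists was called by the mouse sums in any comparison, namely 24 of 42 other retinal homeobox genes, 9 of 10 TALE partners of Meis, 9 of 10 cofactors of LIM-homeobox proteins and 16 of 16 targets and partners of Otx2 and Crx. By unadjusted p under 0.05 there were 4, 7 and 5 genes of the first list, 2, 3 and 2 of the second, 1, 2 and 0 of the third and 3, 8 and 6 of the last. Over all 16706 genes tested the counts were 1440, 2114 and 1315. The median log2 fold changes of the lists were -0.12, 0.07 and -0.17 for the first, 0.19, 1.22 and 0.27 for the second, 0.15, 0.08 and -0.30 for the third and -0.22, 0.48 and -0.91 for the last. Those over all genes tested were -0.06, 0.01 and -0.08.

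By retina sums, Irx3, an Iroquois homeobox gene, was called as lower in Igfn1-only than in Ddit4l-only cells (edgeR adjusted p = 0.02612). It was at 29.1 ± 5.95 TPM (SD, n = 2 mice) in Ddit4l-only cells, with 34.4% of cells at 20 TPM or more, and was listed at 0 in Igfn1-only and at 0.0137 TPM in Sox6-only cells. Prox1, a homeobox gene of several inner retinal classes, was at 206, 230 and 227 TPM.

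Among the partners, Pknox1, a TALE-class gene, averaged 40.5, 16.7 and 119 TPM, and was lower in Igfn1-only than in Ddit4l-only cells by retina sums (-2.88 ± 0.44, edgeR adjusted p = 0.01752). Gnb3, a G protein subunit of ON bipolar cells and cones, averaged 2022, 3670 and 728 TPM. By retina sums Gnb3 was higher in Igfn1-only than in Ddit4l-only cells (2.52 ± 0.17, edgeR adjusted p = 2.373e-04). By the same sums it was lower in Ddit4l-only than in Sox6-only cells (-1.68 ± 0.17, edgeR adjusted p = 0.006127). The mouse sums gave edgeR adjusted p = 0.0643 and 0.3459 for these comparisons, with no call. Cabp5 averaged 1579, 47.5 and 1795 TPM, with -5.74 ± 1.07 by retina sums for Igfn1-only against Ddit4l-only cells (edgeR adjusted p = 0.03862). By mouse sums Cabp5 was not called in that comparison (edgeR adjusted p = 0.2688). Of the LIM cofactors, Ssbp2 was highest at 815, 940 and 645 TPM. Lmo4, a LIM-only protein gene named after its values were seen, averaged 143, 5.48 and 207 TPM and passed no test.

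The la and Ra retinas of each mouse were set side by side, as 6 combinations of mouse and group. Isl1 was higher in Ra in 6 of 6, and 13.4% of 2292 genes at 50 TPM or more in all 3 groups were so too. Otx2 was lower in Ra in 3 and higher in 3, Crx lower in 4 and higher in 2, and Vsx1 and Six3 each lower in 2 and higher in 4. Lhx4 and Meis2 were low in Igfn1-only cells, where the Ra to la ratio was 0.0533 and 0.137 for Lhx4 and 0.500 and 4.81 for Meis2 in mouse 1 and mouse 2, on levels of at most 1.33 and 14.9 TPM. In the other 4 combinations both were lower in Ra, as were 13.6% of 2557 genes at 50 TPM or more in both these groups. The Lhx4 ratio there was 0.908 in mouse 1 and 0.468 in mouse 2 for Sox6-only cells, and 0.560 and 0.384 for Ddit4l-only cells. That of Meis2 was 0.645 and 0.741, and 0.750 and 0.914. Meis1, at under 20 TPM on average, was lower in Ra in 5 of 6, and Lhx3 was lower in 2 and higher in 3. The Ra retinas also had the lower depth of each mouse and the higher mitochondrial share given at the start, and the part of these in the values was not tested.

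**Figure D5:**
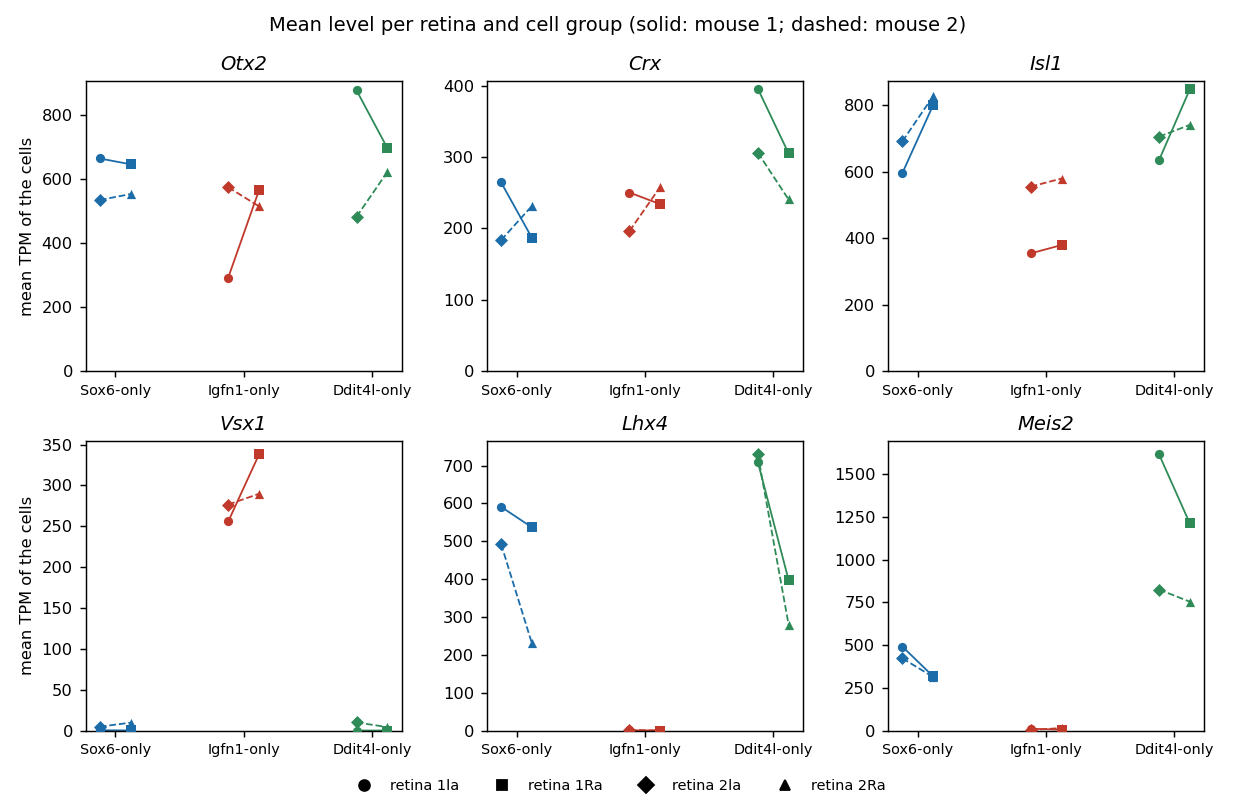
Points are mean TPM of the cells of 1 retina and group (vertical axis, from 0) for each group (horizontal axis), with lines that join the la and Ra retinas of mouse 1 (solid) and mouse 2 (dashed). In every retina Vsx1 is highest in Igfn1-only cells (256 to 338 TPM), Meis2 is highest in Ddit4l-only cells (754 to 1616 TPM), and Lhx4 is near 0 in Igfn1-only cells.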

How the data were processed

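Single cells of mouse retina at postnatal day 17 were profiled by Smart-seq2, without molecular identifiers. The tools named per the submitters' processing notes are TopHat2 2.0.10 and RSEM 1.2.28, with mm10 as the genome build, and the annotation is not given in the sources used here. The authors deposited a table of expected counts from RSEM, without normalisation, and a table of TPM, scaled for gene length within each cell. The tables hold 32813 genes for 383 of 384 cells; the remaining cell (retina 1la) was not analysed here. Gene positions come from the GRCm38 annotation and start-site windows from RefSeq GRCm38.p6.

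Levels are deposited TPM averaged over the cells of a mouse. For tests, expected counts were summed per mouse and group, rounded and compared with edgeR 4.0.16 (R 4.3.3, limma 3.58.1; TMM scaling, filterByExpr, mouse as block, Benjamini-Hochberg adjustment over all genes), a method tested on simulated data. CPM were computed from these sums. The pairing comes from shared animals. Over 9160 genes, deviations of same-mouse sums from their group means correlated at r = 0.042 to 0.071. Alternatives were retina sums, no block, DESeq2 1.42.0, RLE scaling, other filters on low counts, other marker and gene-number limits, and leaving out rod-rich cells or each retina. Intervals cover counting error only. The 9 genes, the cell groups and the lists were chosen with earlier results of these data known. Named beyond them were the 3 genes most alike in pattern to each member that reached 50 CPM and differed at least 4-fold between groups, and, of each list, up to 4 called genes per comparison and those at the highest level. Other analyses used Python 3.11.15, pandas 2.3.3, numpy 2.4.6, scipy 1.17.1 and matplotlib 3.10.9. A result for 1 gene of the lists is not reported here.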

Additional observations from a re-analysis of the deposited data

Results flagged for a closer look

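Lhx3 averaged 2.231 TPM in the Ddit4l-only cells of retina 2Ra and 0 TPM in those of the other 3 retinas, which set 2Ra apart by the Dixon limit for 4 samples. The value rests on 1 cell with 24.5 TPM. With the other 3 means at 0, any value above 0 would have been set apart. Of 27 sets of 4 retina means looked at, 1 was set apart. Chance gives about 1 in 20 for normally distributed values, a rate that does not hold where most means are 0. Of 27 differences between cell groups, 0 went one way in both retinas of one mouse and the other way in both retinas of the other.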

How the results depend on the processing

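The number of genes called depended on the fit. For Igfn1-only against Sox6-only, Igfn1-only against Ddit4l-only and Ddit4l-only against Sox6-only cells, it was 6, 7 and 1 as reported, and 104, 252 and 51 with retina sums, 878, 1589 and 695 with DESeq2, and 88, 261 and 10 with at least 10 CPM in 2 sums. Without the replicate block it was 30, 55 and 1; without the block Lhx4 had adjusted p = 0.01615 and 0.007077, and Meis2 had 0.02726 against Sox6-only (called, unlike with the block) and 0.007909 against Ddit4l-only cells. It was 0, 6 and 1 with RLE scaling, 0, 3 and 0 with a marker threshold of 10 TPM, and 0, 3 and 0 with 50 TPM. It was 0, 0 and 0 without rod-rich cells, where 1376, 1877 and 1134 genes had an unadjusted edgeR p under 0.05 (1464 for the RLE count of 0, 1470 and 1320 at 10 TPM, 1475 and 1284 at 50 TPM). Leaving out 1 retina gave 0 to 1, 0 to 10 and 0 to 2 calls, with 890 to 1484 genes at an unadjusted p under 0.05 where there were none. The cause of these changes was not tested.

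With RLE scaling Lhx4 against Sox6-only (adjusted p = 0.05107) and Meis2 against Ddit4l-only cells (0.05805) were not called. At 10 and 50 TPM Lhx4 had 0.1315 and 0.1501 against Sox6-only and 0.09085 and 0.1259 against Ddit4l-only cells, and Meis2 0.05103 and 0.06607. Vsx1 was called in 1 and 2 of 15 alternatives, with log2 fold changes of 6.23 to 9.01 and 6.30 to 10.28. For 1 mouse alone the log2(CPM + 1) ratio was taken, with no test. Against Sox6-only cells it was 8.635 in mouse 1 and 5.224 in mouse 2 for Vsx1, and -9.055 and -8.139 for Lhx4. Against Ddit4l-only cells it was 9.351 and 5.238 for Vsx1, and -9.025 and -8.641 for Lhx4. DESeq2 alone called Meis2 between Ddit4l-only and Sox6-only cells (adjusted p = 6.004e-05). No direction of Lhx4, Meis2 or Vsx1 against Igfn1-only cells changed in any of the 15 alternatives.

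Log2 fold changes near 0 changed sign. For Igfn1-only against Sox6-only cells, Crx was 0.019 with retina sums. Leaving out 1 retina or 1 mouse (1 mouse alone gives a ratio with no test) gave -0.14 to 0.13 for Crx, -3.49 to 4.19 for Lhx3 and -1.65 to 0.83 for Meis1. For Igfn1-only against Ddit4l-only cells the same gave -1.81 to 0.84 for Meis1, and Six3 was -0.19 at 5000 genes. For Ddit4l-only against Sox6-only cells it gave -1.43 to 0.24 for Vsx1, -0.17 to 0.22 for Otx2, -0.16 to 0.19 for Isl1 and -0.56 to 1.2 for Meis1. In that comparison Otx2 was -0.012 at 10 CPM, Isl1 was -0.022 at 10 CPM, -0.011 at 50 TPM, -0.027 at 1500 genes and -0.099 at 5000 genes, and Meis1 was 0.289 with retina sums and 0.044 without rod-rich cells. Few cells had Lhx3, Meis1 or Six3, which limits what these data can show of them.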
